A study of Mus musculus with 9 samples.

Results

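The genes of Toll-like receptor and NF-kB signalling form a list of 53 mouse genes in 7 roles. The roles run from the receptors through their adaptors and kinases to the NF-kB proteins, their inhibitors and genes listed as feedback. Only some of the genes listed as feedback are known to damp the response. The 53 genes were found by gene symbol among the 46237 probes of the array, 84 probes by the platform's own symbol and 1 more, for Nlrp3, under an older one, which gave 85 probes of 48 genes. No probe was matched for Irak4, Traf3, Ripk1, Chuk and Ripk2, which are not analysed here. After a filter that kept probes above background on at least 3 of the 9 arrays, 40 of the 48 genes remained, among 12246 genes in all. Each is represented by its brightest passing probe.

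The arrays hold RNA of alveolar macrophages, sorted by flow cytometry from lungs of female C57/BL6 mice at 8 weeks of age on the surface proteins SiglecF and CD11b. Pparg-deficient cells were sorted from Pparg-/-.LysMCre mice, where Cre is expressed from the myeloid LysM promoter, and their titles name an "int pop" that the labels do not define. Hom Mph cells carry the same genotype label, Pparg-/-.LysMCre, although the cell type field describes them as wild type. Het Mph cells, likewise described as wild type, were from Pparg-/+.LysMCre animals. All 3 groups thus carry LysMCre, no group without it was measured, and each group has 3 arrays. No label says whether the 3 samples of a group are separate mice, so each p-value sets a difference against the scatter of these samples alone, which could be technical.

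Toll-like receptors bind microbial lipids, proteins and nucleic acids at the cell surface or in endosomes and recruit adaptors such as MyD88. Through IRAK kinases, TRAF6 and TAK1 the signal reaches the IkB kinases, which mark IkB proteins for destruction and so release NF-kB dimers into the nucleus. Many products of NF-kB target genes, among them IkBα and A20, then shut the pathway down again, and in alveolar macrophages, the phagocytes of the air spaces, PPARγ is known as a nuclear receptor that restrains inflammatory genes.

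Between 37.8% and 42.5% of the probes of an array were above background, and the median raw intensity ran from 146.2 to 184.2 on the Pparg-deficient arrays, from 145 to 241.7 on the Hom Mph arrays and from 198.4 to 290.3 on the Het Mph arrays. Pparg itself had log2 signals of 7.58, 7.23 and 7.76 in Pparg-deficient cells, of 9.71, 9.15 and 8.13 in Hom Mph cells and of 9.46, 9.36 and 9.55 in Het Mph cells. The Pparg-deficient arrays were below all 6 control arrays (log2 difference -1.70, adjusted p = 0.059; two-sided exact permutation p = 0.0119, the smallest that 84 splits allow), and the probe was not checked against the deleted exons. Of 16 alveolar macrophage markers 13 were measured, and Fabp4 did not pass the filter. At a limma adjusted p under 0.05 against both controls, 3 were lower in Pparg-deficient cells and 0 higher, beside 0.196% and 0.572% of all genes. The 3 were Siglecf, which encodes a protein of the sort, Marco and Krt19. Differences of 10 of the 13 were below 0. Every Pparg-deficient array was below every control array for 7 and above for 1 (Itgax), beside 3.3% and 3.58% of all genes. Pparg, the targeted gene, is itself 1 of the 13 and is counted among the 10 and the 7. Krt79, also among the 7, was above background on 0 Pparg-deficient and 0 Hom Mph arrays, so its order between those groups is not measured. The summed linear signal of the 13 was 13366 to 14120 in Pparg-deficient cells, 16509 to 18500 in Hom Mph cells and 17280 to 18670 in Het Mph cells. The 3 Pparg-deficient arrays lie on a beadchip of their own and the 6 control arrays share another, so that chip and Pparg deficiency cannot be told apart in any comparison with Pparg-deficient cells. Fewer cells of a type and less RNA per cell cannot be told apart either. Het Mph replicate 3, the array with the highest median raw intensity, stood apart in these genes: it was the lowest of the 9 arrays for 20 of the 40 measured genes (50%), against 12.6% of all genes, and its part in the results is given by leaving it out.

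Birc3, which encodes the ubiquitin ligase and apoptosis inhibitor cIAP2, and Tlr9, the endosomal receptor for unmethylated CpG DNA, were higher in Pparg-deficient cells than in the mean of both control groups. They were the only 2 of the 40 measured genes with a limma adjusted p under 0.05, and 0 were lower, against a background of 0.768% of all 12246 genes called in this comparison (0.572% higher and 0.196% lower). Tlr9 passed the filter only through the Pparg-deficient arrays, where it was bright. The filter therefore favoured its call and its place in the counts that follow. With an unadjusted p below 0.05, 12 of the 40 were higher and 0 lower, where 6.04% of all genes were higher and 6.72% lower. The 3 Pparg-deficient arrays lay above all 6 control arrays for 10 of the 40 genes (Tlr9, Ly96, Irak1, Nfkb1, Nfkbia, Nfkbid, Nfkbiz, Socs3, Birc3 and Nlrp3) and below them for 1 (Tlr4), beside 3.58% and 3.3% of all genes. The median log2 difference of the 40 was 0.25, against -0.07 over all genes, and 26 of the 40, or 65%, had a difference above 0, against 43.4% of all genes. Without Het Mph replicate 3 the median was 0.21 and 26 differences were above 0, and 1 gene, Birc3, was called. Of the 28 members that were above background on all 9 arrays, 6 had every Pparg-deficient array above the controls and 1 had every one below them, where 4.13% and 3.51% of the 6579 genes with that property did.

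**Figure D1:**
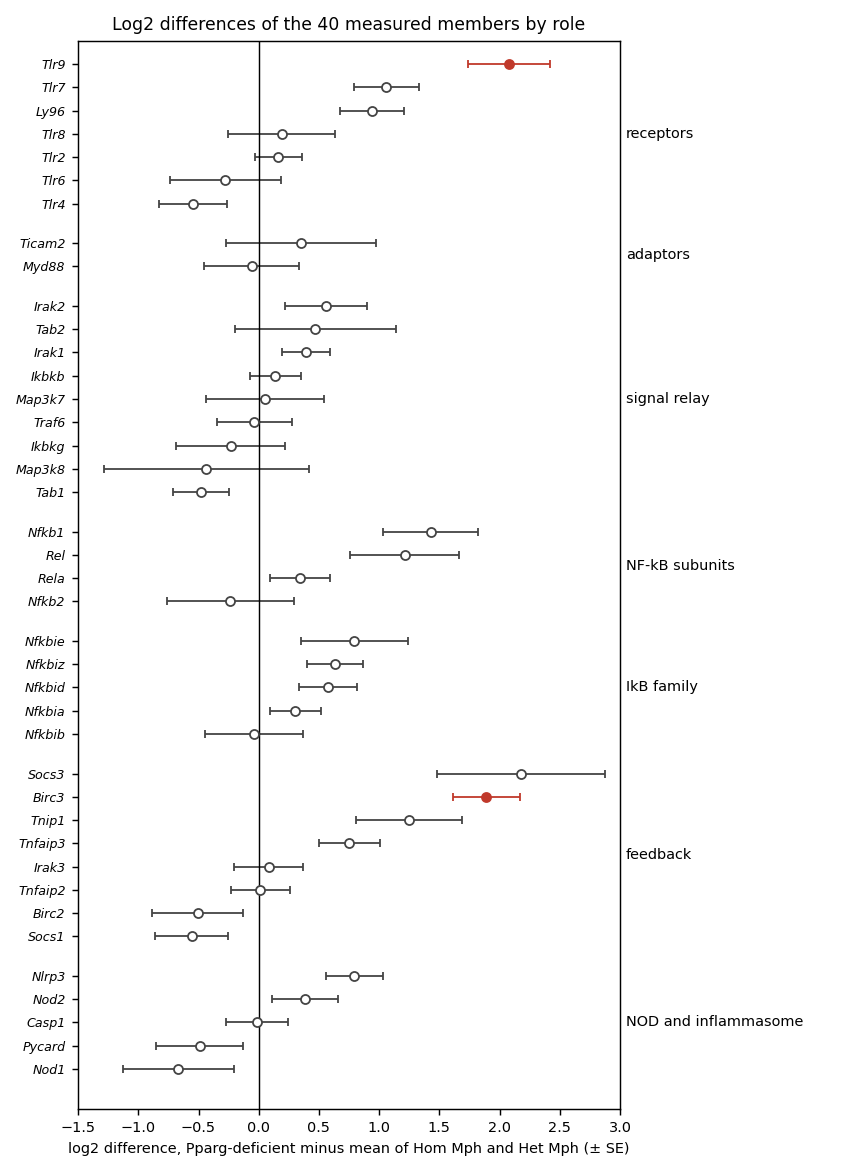
Log2 difference of each of the 40 measured genes, Pparg-deficient cells minus the mean of Hom Mph and Het Mph cells, with its standard error from limma, grouped by role from receptors at the top to NOD and inflammasome genes at the bottom. Filled red points mark adjusted p under 0.05, which only Tlr9 (2.08) and Birc3 (1.89) reach. Socs3 (2.17) has the widest error among the genes above 1.

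The promoters of 6 genes are shown, those of the 2 called genes and of 4 members known to be induced by NF-kB, which were chosen after their values were seen. Each is RefSeq's window of 300 bases, from 250 before to 50 after an annotated start, on assembly GRCm38.p6 and written on the gene's own strand. Capitals mark matches to the NF-kB consensus, searched on both strands and allowing overlaps. Birc3 lies at chr9:7873121-7873420 (minus strand), Tlr9 at chr9:106222348-106222647 (plus), Nfkbia at chr12:55492598-55492897 (minus), Nfkbid at chr7:30422156-30422455 (plus), Tnfaip3 at chr10:19015361-19015660 (minus) and Nlrp3 at chr11:59541319-59541618 (plus).
Birc3: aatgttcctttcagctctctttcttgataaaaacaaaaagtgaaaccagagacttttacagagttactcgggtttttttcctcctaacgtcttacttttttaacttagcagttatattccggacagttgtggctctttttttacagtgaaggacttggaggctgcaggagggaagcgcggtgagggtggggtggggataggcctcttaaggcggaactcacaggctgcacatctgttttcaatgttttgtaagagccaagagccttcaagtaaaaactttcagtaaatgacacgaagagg
Tlr9: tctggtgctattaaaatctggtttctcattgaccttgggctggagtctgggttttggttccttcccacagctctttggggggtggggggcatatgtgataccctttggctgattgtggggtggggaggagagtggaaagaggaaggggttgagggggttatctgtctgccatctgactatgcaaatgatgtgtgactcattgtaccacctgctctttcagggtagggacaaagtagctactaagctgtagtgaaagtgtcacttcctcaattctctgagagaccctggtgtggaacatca
Nfkbia: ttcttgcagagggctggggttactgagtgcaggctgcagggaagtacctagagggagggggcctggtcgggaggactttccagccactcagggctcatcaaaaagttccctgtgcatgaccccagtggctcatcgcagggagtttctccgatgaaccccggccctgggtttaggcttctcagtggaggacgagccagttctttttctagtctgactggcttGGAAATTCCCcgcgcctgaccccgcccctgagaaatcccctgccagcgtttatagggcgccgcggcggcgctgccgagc
Nfkbid: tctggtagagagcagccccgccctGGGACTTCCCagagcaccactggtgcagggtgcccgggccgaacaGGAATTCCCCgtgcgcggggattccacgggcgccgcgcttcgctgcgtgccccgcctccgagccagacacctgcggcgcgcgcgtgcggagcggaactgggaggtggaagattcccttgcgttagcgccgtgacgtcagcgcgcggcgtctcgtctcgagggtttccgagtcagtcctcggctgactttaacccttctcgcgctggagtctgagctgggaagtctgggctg
Tnfaip3: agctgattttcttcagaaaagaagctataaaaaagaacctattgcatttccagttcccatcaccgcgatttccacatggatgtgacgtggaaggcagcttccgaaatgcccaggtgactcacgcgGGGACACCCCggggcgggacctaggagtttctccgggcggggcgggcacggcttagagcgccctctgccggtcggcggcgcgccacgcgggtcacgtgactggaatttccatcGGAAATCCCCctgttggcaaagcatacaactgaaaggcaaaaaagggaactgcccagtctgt
Nlrp3: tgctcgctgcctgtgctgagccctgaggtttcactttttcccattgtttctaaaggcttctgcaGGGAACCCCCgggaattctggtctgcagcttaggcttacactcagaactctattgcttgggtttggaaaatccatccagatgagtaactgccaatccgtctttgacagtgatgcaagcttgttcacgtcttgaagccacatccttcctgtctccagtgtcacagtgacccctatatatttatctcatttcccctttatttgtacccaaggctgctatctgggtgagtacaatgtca
The windows of Birc3 and Tlr9 hold no match, which says only that these letters are absent from these 300 bases. In Tnfaip3 the centre of the nearest match lies 7 bases from the start, in Nfkbia 24 bases, in Nfkbid 176 bases and in Nlrp3 181 bases. Nfkbid, Tnfaip3 and Nlrp3 have further annotated starts whose windows hold none. Over all 32851 RefSeq windows 8.46% hold a match. Of 60 windows that belong to 42 of the 53 genes, 18 windows (30%) of 15 genes hold one. A match describes the letters and shows no binding.

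Tlr9 had log2 signals of 7.02, 6.27 and 7.62 in Pparg-deficient cells, of 5.46, 4.68 and 4.49 in Hom Mph cells and of 4.88, 4.72 and 5.14 in Het Mph cells. Every Pparg-deficient array was above every control array, and the probe was above background on all 3 Pparg-deficient arrays, on 1 Hom Mph array and on 0 Het Mph arrays. It therefore passed the filter only through the group where it was bright and had to differ. The log2 difference from both controls was 2.08 ± 0.34 (SE, adjusted p = 0.0268). Het Mph gives only a bound, so each of its arrays was set at its lowest signal above background, or the probe's own where higher. The Pparg-deficient mean was then 4.15-fold that of both controls under this background correction. Hom Mph entered at its own mean of 4.87, although the probe was above background there on only 1 array. The 4.15-fold is therefore not a lower bound. The call was lost (adjusted p from 0.0521 to 0.162) when any one of Pparg-deficient replicates 1 and 3, Hom Mph replicates 2 and 3 or Het Mph replicates 1 to 3 was left out, and also without normalization between arrays (adjusted p = 0.0525) or without the filter (adjusted p = 0.0635). Without background correction the log2 difference was 0.61 (adjusted p = 0.0271), and in the authors' deposited normalized table it was 0.57. A second Tlr9 probe was above background on 1 array, a Pparg-deficient one, and was not tested. The raw intensities of the tested probe were 230.1, 207.8 and 337 in Pparg-deficient cells, 162.3, 241 and 197.6 in Hom Mph cells and 206.9, 218.7 and 314.3 in Het Mph cells. They overlap between the groups before background correction and normalization, while the array medians of the Pparg-deficient cells were all below those of the Het Mph cells.

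Tlr7, the endosomal receptor for single-stranded RNA, had log2 signals of 7.67, 7.62 and 7.72 in Pparg-deficient cells, of 7.97, 7.00 and 7.07 in Hom Mph cells and of 6.06, 5.95 and 5.61 in Het Mph cells. The Het Mph arrays were low, and Hom Mph replicate 1 was above all Pparg-deficient arrays. Tlr7 was called against Het Mph (log2 difference 1.80 ± 0.31, adjusted p = 0.0276) and not against both controls (1.06 ± 0.27, adjusted p = 0.126) or Hom Mph (0.33 ± 0.31, adjusted p = 0.85). Without any one Pparg-deficient or Het Mph array the call against Het Mph was lost, with adjusted p from 0.0716 to 0.128. It was also lost without normalization between arrays or with cyclic loess between arrays, and held in 16 of 24 alternatives. Over the 24 the log2 difference ran from 0.65 to 1.95. Raw intensities overlapped, with 336.2 on Het Mph replicate 3 and 318.6, 331.8 and 347.5 in Pparg-deficient cells.

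Ly96 encodes MD-2, the partner with which TLR4 binds lipopolysaccharide. Its log2 signals were 8.65, 8.73 and 8.23 in Pparg-deficient cells, 7.21, 8.09 and 7.63 in Hom Mph cells and 7.75, 7.26 and 7.63 in Het Mph cells, with the Pparg-deficient arrays above all controls. The difference of 0.94 ± 0.27 was not called (adjusted p = 0.166). Tlr4, the lipopolysaccharide receptor, had log2 signals of 7.70, 7.95 and 8.12 in Pparg-deficient cells, of 9.17, 8.12 and 8.16 in Hom Mph cells and of 8.60, 8.27 and 8.48 in Het Mph cells. The brightest Pparg-deficient array lay below the dimmest control array by less than the printed digits show, and the difference was -0.55 ± 0.28 (adjusted p = 0.459). The other Tlr4 probes, both above background on all arrays, differed by 0.21 and -0.03, so the order of the groups is that of 1 probe.

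The lipopeptide receptor Tlr2 averaged 10.61 ± 0.09 in Pparg-deficient cells, 10.47 ± 0.11 in Hom Mph cells and 10.44 ± 0.07 in Het Mph cells (log2 signal, SD, n = 3 each), a difference of 0.16 ± 0.20. Its co-receptor Tlr6 differed by -0.28 ± 0.46, and Tlr8, a receptor of the Tlr7 group, by 0.19 ± 0.44. None of the 3 was called. Tlr1 and the double-stranded RNA receptor Tlr3 were above background on 0 arrays.

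**Figure D2:**
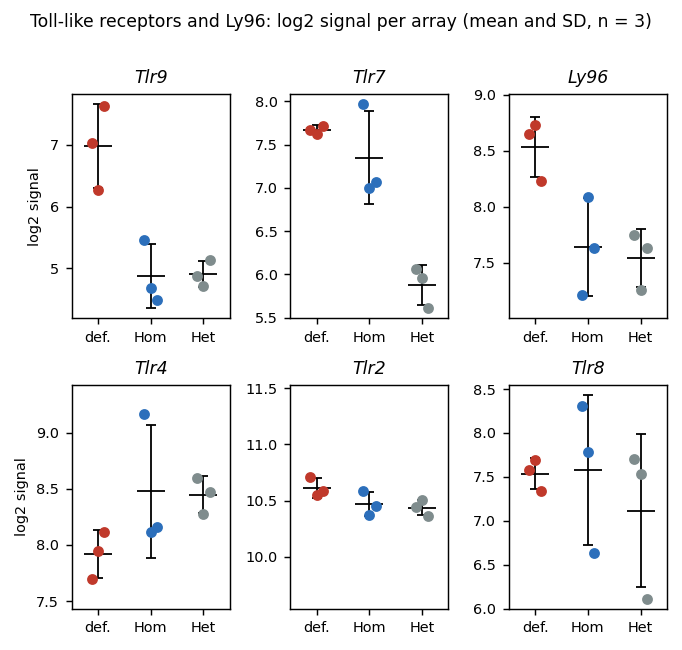
Log2 signal on every array for 5 Toll-like receptors and Ly96, with Pparg-deficient cells (def., red) at the left of each panel, Hom Mph cells (Hom, blue) in the middle and Het Mph cells (Het, grey) at the right, and bars for mean and SD (n = 3). The 3 Pparg-deficient arrays stand above the 6 controls for Tlr9 and Ly96, while for Tlr7 the Het Mph arrays alone are low. The vertical axes differ between panels and do not start at 0.

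Neither measured adaptor was called in any of the comparisons. Myd88, the adaptor of nearly all Toll-like receptors, had log2 signals of 8.81, 8.16 and 8.88 in Pparg-deficient cells, of 9.60, 8.96 and 8.60 in Hom Mph cells and of 9.16, 8.26 and 7.46 in Het Mph cells, which overlap (log2 difference from both controls -0.06 ± 0.39). Ticam2, the bridging adaptor TRAM of Tlr4, had 6.29, 6.84 and 6.89 in Pparg-deficient cells, 7.54, 6.44 and 5.85 in Hom Mph cells and 5.43, 7.81 and 4.85 in Het Mph cells, and spread most within the Het Mph group (0.35 ± 0.62). The probes of Ticam1 and Tirap, the other adaptors of the list, were above background on 0 or 1 array each.

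Kinases and ubiquitin ligases that relay the signal stayed without a call as well. Irak1, a kinase bound by MyD88, had log2 signals of 9.19, 9.32 and 9.07 in Pparg-deficient cells, of 8.86, 8.76 and 8.70 in Hom Mph cells and of 8.88, 8.94 and 8.69 in Het Mph cells. The Pparg-deficient arrays were above all controls, at a difference of 0.39 ± 0.20 (adjusted p = 0.451), but another of its 3 passing probes differed by -0.38 and the last by 0.29. Irak2, a related kinase, had 8.38, 8.02 and 8.42 in Pparg-deficient cells, 7.48, 7.32 and 8.29 in Hom Mph cells and 7.79, 8.35 and 7.05 in Het Mph cells. The brightest arrays of both control groups reached into the Pparg-deficient range (0.56 ± 0.34, adjusted p = 0.534). The other passing probe of Irak2 differed by 1.52 (adjusted p = 0.205 over all passing probes). On that probe every Pparg-deficient array was above every control array, so the overlap is that of 1 probe. Tab1, a partner of TAK1, had 5.60, 5.91 and 6.16 in Pparg-deficient cells, 5.74, 6.19 and 6.30 in Hom Mph cells and 6.53, 6.70 and 6.75 in Het Mph cells. The Het Mph arrays were above all others, and the difference from Het Mph was -0.77 ± 0.27 (adjusted p = 0.247). The other relay genes were Traf6 and Tab2, Map3k7 (TAK1 itself), Map3k8 (the kinase TPL2) and the IkB kinase subunits Ikbkb and Ikbkg, and they differed from both controls by -0.44 to 0.47. Passing probes of these genes that were not used differed by -0.05 (Map3k8) to 1.19 (Map3k7). Map3k8 was above background on 1 array of each group. The probe of Traf2 was above background on 0 arrays.

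Of the NF-kB subunits, the mean signals of Nfkb1 and Rel were raised in Pparg-deficient cells without passing the test. Nfkb1, which encodes p105 and its product p50, had log2 signals of 7.56, 7.02 and 7.90 in Pparg-deficient cells, of 5.83, 6.46 and 6.29 in Hom Mph cells and of 6.64, 4.89 and 6.26 in Het Mph cells. All Pparg-deficient arrays were above all controls, at a difference of 1.43 ± 0.40 (2.69-fold, adjusted p = 0.161). Rel, which encodes the lymphoid and myeloid subunit c-Rel, had 8.03, 8.02 and 8.31 in Pparg-deficient cells, 7.30, 6.77 and 8.02 in Hom Mph cells and 7.11, 7.05 and 5.20 in Het Mph cells. Hom Mph replicate 3 reached the Pparg-deficient range and Het Mph replicate 3 was the lowest (1.21 ± 0.45, adjusted p = 0.313). Rela, which encodes p65, had 9.87, 9.53 and 10.14 in Pparg-deficient cells, 9.16, 9.86 and 9.66 in Hom Mph cells and 9.63, 9.44 and 9.28 in Het Mph cells. These overlap, and the difference was 0.34 ± 0.25 (adjusted p = 0.614). Nfkb2, the p100 gene of the alternative pathway, was above background on 1 array of each group and differed by -0.24 ± 0.53. Relb, its partner, was above background on 1 Pparg-deficient and 1 Hom Mph array and was not tested.

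The IkB family holds both cytoplasmic inhibitors and nuclear regulators of NF-kB, and 3 of its 5 measured genes had every Pparg-deficient array above every control array, with no call. Nfkbia, the classical inhibitor IkBα, had log2 signals of 11.53, 11.41 and 11.39 in Pparg-deficient cells, of 11.06, 11.26 and 11.28 in Hom Mph cells and of 11.10, 11.33 and 10.80 in Het Mph cells. The gap was narrow and the difference 0.30 ± 0.21 (adjusted p = 0.6), while its other probe differed by 0.68 (adjusted p = 0.336 over all passing probes). The promoter window printed above holds its match near the start.

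Nfkbiz encodes the nuclear IkBζ, a co-activator of a secondary set of inflammatory genes. Its log2 signals were 11.97, 11.70 and 11.85 in Pparg-deficient cells, 11.35, 11.25 and 11.69 in Hom Mph cells and 10.99, 11.30 and 10.65 in Het Mph cells. The dimmest Pparg-deficient array was just above Hom Mph replicate 3 (0.64 ± 0.23, adjusted p = 0.305). Nfkbid, which encodes the nuclear IkBNS, had 10.54, 10.53 and 10.57 in Pparg-deficient cells, 10.06, 10.16 and 10.34 in Hom Mph cells and 9.88, 10.11 and 9.27 in Het Mph cells. Its Pparg-deficient arrays were nearly equal and above the rest (0.58 ± 0.24, adjusted p = 0.361). Nfkbie, which encodes the inhibitor IkBε, had 8.18, 8.48 and 8.26 in Pparg-deficient cells, 7.96, 8.36 and 6.54 in Hom Mph cells and 8.30, 7.03 and 6.91 in Het Mph cells. It overlapped through 1 Hom Mph and 1 Het Mph array (0.79 ± 0.44, adjusted p = 0.499). Nfkbib differed by -0.04 ± 0.41, and the probe of Bcl3 was above background on 0 arrays.

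**Figure D3:**
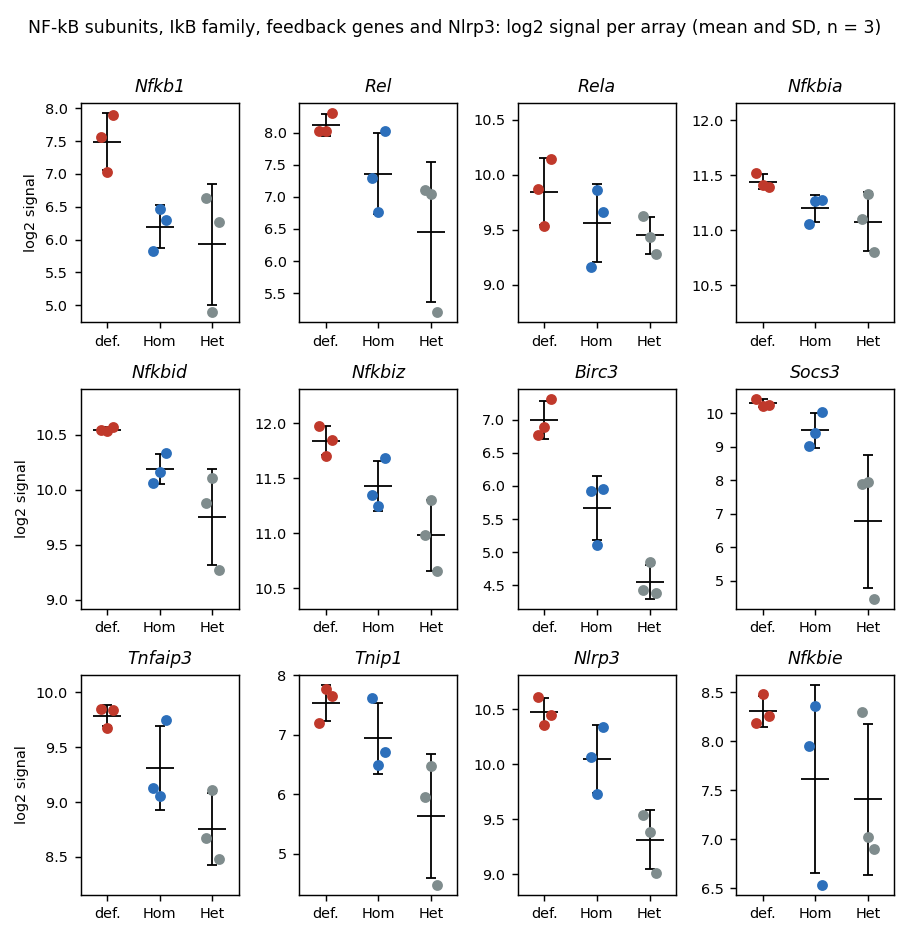
Log2 signal on every array for NF-kB subunits, IkB family members, feedback genes and Nlrp3, with Pparg-deficient cells (def., red) at the left, Hom Mph cells (Hom, blue) in the middle and Het Mph cells (Het, grey) at the right, and bars for mean and SD (n = 3). Birc3 is the called gene among them, and in most panels, among them Socs3, Tnip1, Rel and Nlrp3, the lowest array of the 9 is Het Mph replicate 3. The vertical axes differ between panels and do not start at 0.

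Among the feedback genes, Birc3 had log2 signals of 6.78, 6.89 and 7.32 in Pparg-deficient cells, of 5.93, 5.10 and 5.96 in Hom Mph cells and of 4.43, 4.84 and 4.38 in Het Mph cells. The 3 groups did not overlap, and the probe was above background on all arrays of Pparg-deficient and Hom Mph cells and on 0 of Het Mph. Against both controls the difference was 1.89 ± 0.28 (at least 3.28-fold, adjusted p = 0.0154) and against Het Mph 2.45 ± 0.32 (at least 4.26-fold, adjusted p = 0.00774). Against Hom Mph, measured on both sides, it was 1.33 ± 0.32 (2.52-fold, adjusted p = 0.225). The call against both controls was lost without any one Pparg-deficient array (adjusted p from 0.0613 to 0.0859), or with both controls as 1 group (adjusted p = 0.0837), whereas that against Het Mph held under all 23 alternatives in which Birc3 was measured (adjusted p from 0.00543 to 0.0427). Both folds depend on the background correction, since without it the log2 difference was 0.57 from both controls and 0.72 from Het Mph, and in the authors' deposited normalized table it was 0.54 from both and 0.68 from Het Mph.

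Socs3, an inhibitor of cytokine receptor signalling that inflammatory stimuli induce, had log2 signals of 10.44, 10.23 and 10.26 in Pparg-deficient cells, of 9.02, 9.42 and 10.05 in Hom Mph cells and of 7.90, 7.95 and 4.47 in Het Mph cells. The groups formed 3 steps without overlap, and Het Mph replicate 3, where the probe was not above background, stood far below its own group. The difference of 2.17 ± 0.70 from both controls was not called (adjusted p = 0.229). Nor was that of 3.53 ± 0.81 from Het Mph (adjusted p = 0.08), which without Het Mph replicate 3 was 2.40 and called (adjusted p = 0.0325).

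Tnfaip3 encodes A20, a ubiquitin-editing enzyme that ends NF-kB signalling. Its log2 signals were 9.85, 9.67 and 9.84 in Pparg-deficient cells, 9.13, 9.06 and 9.74 in Hom Mph cells and 8.67, 9.11 and 8.48 in Het Mph cells. Hom Mph replicate 3 alone reached into the Pparg-deficient range (0.75 ± 0.25, adjusted p = 0.251). Tnip1, an A20-binding protein, averaged 7.54 ± 0.30 in Pparg-deficient cells, 6.94 ± 0.60 in Hom Mph cells and 5.64 ± 1.04 in Het Mph cells (SD, n = 3 each), a difference of 1.25 ± 0.44 from both controls (adjusted p = 0.29). Not every gene listed as feedback leaned upward. Socs1, which like Socs3 inhibits cytokine signalling, differed by -0.56 ± 0.30 and Birc2, the paralogue of Birc3, by -0.51 ± 0.38. The other passing probes of Birc2 differed by 0.87 and 0.34, so its direction is that of 1 probe. Irak3, which encodes the inhibitory kinase IRAK-M, and Tnfaip2 differed by 0.08 ± 0.28 and 0.01 ± 0.24. The probes of Traf1 were above background on 0 and 1 array.

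Nlrp3, the sensor of the inflammasome whose expression NF-kB primes, had log2 signals of 10.61, 10.36 and 10.45 in Pparg-deficient cells, of 10.07, 9.73 and 10.34 in Hom Mph cells and of 9.54, 9.39 and 9.02 in Het Mph cells. All Pparg-deficient arrays were above all controls, the nearest being Hom Mph replicate 3, at a difference of 0.79 ± 0.23 (1.73-fold, adjusted p = 0.188). Its second probe, annotated under the older symbol Cias1, differed by 0.83. Nod2, a sensor of bacterial muramyl dipeptide, had 7.13, 7.43 and 7.78 in Pparg-deficient cells, 6.87, 6.89 and 7.62 in Hom Mph cells and 6.68, 7.08 and 7.25 in Het Mph cells, which overlap (0.39 ± 0.27, adjusted p = 0.605). Nod1, a related peptidoglycan sensor, had 6.82, 7.13 and 5.00 in Pparg-deficient cells, 7.17, 6.96 and 6.32 in Hom Mph cells and 7.32, 7.46 and 6.68 in Het Mph cells. Pparg-deficient replicate 3 was the lowest of the 9 arrays (-0.67 ± 0.46, adjusted p = 0.596). The inflammasome adaptor Pycard differed by -0.49 ± 0.36, with a second probe at 1.15 that was above background on 3 arrays, and Casp1, the inflammasome's protease, by -0.01 ± 0.26.

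The comparison with Het Mph cells alone sets Pparg-deficient cells against mice with 1 Pparg allele left. Birc3, Tlr7 and Tlr9 were called higher, 3 of 40 genes, and 0 lower, beside a background of 1.05% called among all genes (0.784% higher and 0.269% lower). Tlr9 was at least 4.01-fold higher (2.06 ± 0.39, adjusted p = 0.0457), but its call was lost under 14 of 23 alternatives (adjusted p from 0.0197 to 0.159 over the 23). Among these were no background correction (0.59, adjusted p = 0.0576), the authors' deposited normalized table (0.54, adjusted p = 0.0885) and most single arrays left out. Arrays did not overlap for 15 genes that were higher and 2 that were lower, beside 10% and 12.5% of all genes, and 30 of the 40 differences were above 0, beside 41.2%. Without Het Mph replicate 3, 26 of the 40 were above 0, and 2 genes, Birc3 and Socs3, were called. Differences above 0 numbered 26 of 39 without Het Mph replicate 1 and 30 of 40 without replicate 2. At an unadjusted p under 0.05, 12 genes were higher and 1 lower (Tab1), where 6.85% of all genes were higher and 6.97% lower. Below the threshold for calling, differences over 1 on the log2 scale were those of Socs3, Tnip1 (1.90 ± 0.51, adjusted p = 0.132), Rel (1.67 ± 0.52, adjusted p = 0.199), Nfkb1 (1.56 ± 0.46, adjusted p = 0.165), Nlrp3 (1.16 ± 0.27, adjusted p = 0.0839) and Tnfaip3 (1.03 ± 0.29, adjusted p = 0.145).

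Against Hom Mph cells, which carry the same genotype label, 0 of 40 genes were called by limma, with a background of 0.196% called among all genes (0.147% higher and 0.049% lower). With an unadjusted p below 0.05, 4 genes (Tlr9, Ly96, Nfkb1 and Birc3) were higher and 0 lower, where 4.05% of all genes were higher and 4.23% lower. Arrays did not overlap for 10 genes that were higher and 1 that was lower, beside 6.17% and 6.7% of all genes, on arrays that the comparison with both controls uses too, and 25 of the 40 differences were above 0, beside 46.5%. Tlr9, above background on 1 of the 3 Hom Mph arrays, had a log2 difference of 2.10 ± 0.39 (adjusted p = 0.0983), and Birc3 and Nfkb1 followed at 1.33 and 1.30 on the log2 scale.

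Hom Mph and Het Mph cells, both called wild type, lie on the same beadchip, so that the chip does not separate these groups. By limma 0 of 40 genes were called, beside a background of 0.0327% (0.0245% higher and 0.00817% lower). With an unadjusted p below 0.05, 5 genes (Tlr7, Tnip1, Socs3, Birc3 and Nlrp3) were higher in Hom Mph cells and 0 lower, beside 3.64% and 2.73% of all genes. Differences were 2.72 ± 0.81 for Socs3 (adjusted p = 0.584; 1.59 without Het Mph replicate 3), 1.47 ± 0.31 for Tlr7 (adjusted p = 0.251), 1.30 ± 0.51 for Tnip1 (adjusted p = 0.746) and 0.73 ± 0.27 for Nlrp3 (adjusted p = 0.735). For Birc3 the difference was 1.11 ± 0.32, at least 1.69-fold (adjusted p = 0.573). Arrays did not overlap for 6 higher genes and 1 lower gene, beside 5.48% and 6.59% of all genes. Differences were above 0 for 32 of 40 genes, beside 43.6%. That count was 28 of 39 without Het Mph replicate 1, 27 of 40 without replicate 2 and 26 of 40 without replicate 3.

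**Figure D4:**
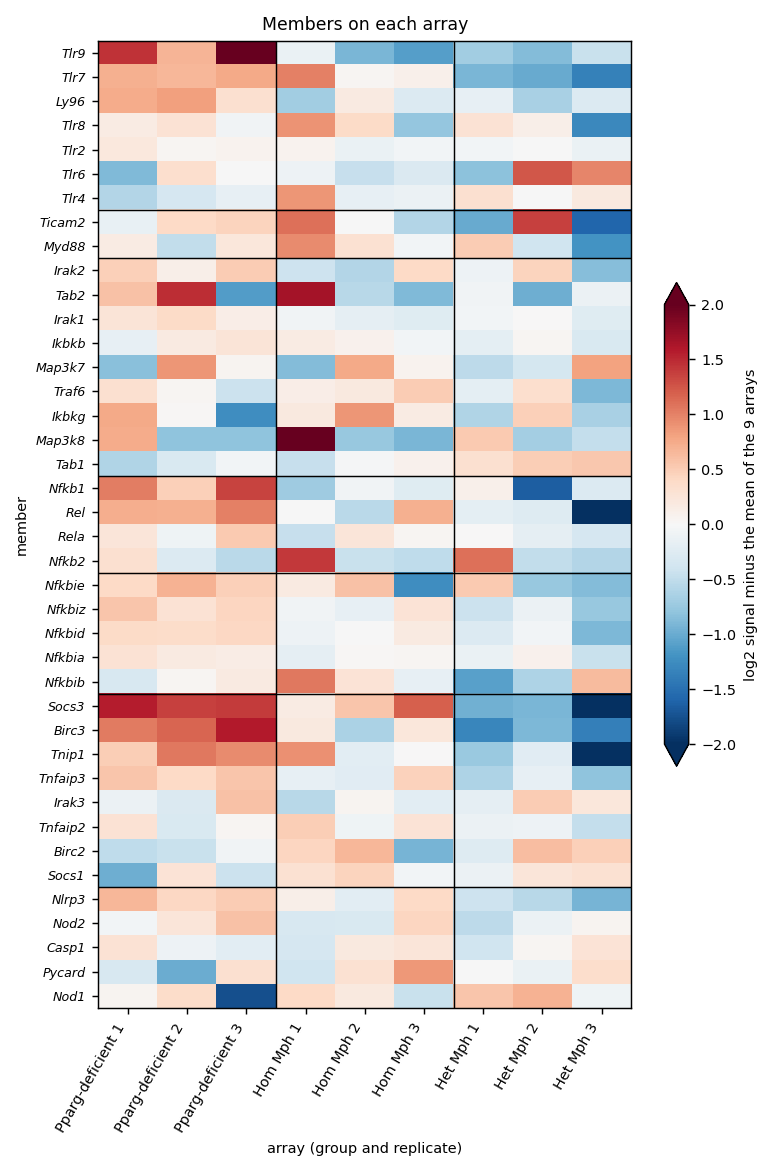
Log2 signal of the 40 genes (down the page, by role) on the 9 arrays (across: Pparg-deficient, Hom Mph, Het Mph, replicates 1 to 3), each minus the gene's mean over all arrays, on a colour scale from -2 to 2. Tlr9, Birc3, Socs3 and Nfkb1 are red on all 3 Pparg-deficient arrays; Het Mph replicate 3 is deep blue for Socs3, Tnip1 and Rel; Map3k8, Tab2 and Nfkb2 are brightest on Hom Mph replicate 1.

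The number of arrays, 3 a group, limits the precision of every value. The median SD of the 40 genes was 0.28 in Pparg-deficient cells, 0.44 in Hom Mph cells and 0.38 in Het Mph cells. Over all genes it was 0.43 in Pparg-deficient cells, 0.46 in Hom Mph cells and 0.38 in Het Mph cells. Of the 14 members with several passing probes, the probes of 8 differed from both controls in 1 direction and those of 6 (Birc2, Ikbkg, Irak1, Pycard, Tlr4 and Traf6) in both.

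Other genes of these pathways, a list of 42 that includes co-receptors, chaperones, ubiquitin enzymes and interferon regulatory factors, had 34 measured. By limma 0 of the 34 were called against both controls, and at an unadjusted p under 0.05, 5 were higher and 3 lower, beside 6.04% and 6.72% of all genes. Their median log2 difference was 0.24, against -0.07 over all genes. Against Het Mph 1 was called, beside 1.05% of all genes, namely Ly86, which encodes MD-1, the partner of the TLR4 relative Cd180. Ly86 had log2 signals of 7.76, 8.01 and 7.75 in Pparg-deficient cells, of 6.61, 6.78 and 8.19 in Hom Mph cells and of 5.54, 4.37 and 4.32 in Het Mph cells. The Het Mph arrays were below all others (3.09 ± 0.47 against Het Mph, adjusted p = 0.0151), while Hom Mph replicate 3 was the brightest of all (0.64 ± 0.47 against Hom Mph).

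Several measures moved beside these genes, and their part in the results was not tested. Of 24 early response and heat shock genes, a set that tissue dissociation is known to induce, 22 were measured. By limma 0 were called against both controls, beside 0.768% of all genes. An unadjusted p under 0.05 was reached by 7 higher and 0 lower genes, beside 6.04% and 6.72% of all genes. Against Het Mph 1 was called, Hspa1a (1.82 ± 0.32, adjusted p = 0.0305), beside 1.05% of all genes. The summed linear signal of the 22 was 31843 to 34159 in Pparg-deficient cells, 28871 to 30310 in Hom Mph cells and 25086 to 29605 in Het Mph cells, ranges that overlap only between the controls. Markers of monocytes and interstitial macrophages, of which 8 of 16 were measured, summed to 963.1 to 2636 in Pparg-deficient cells, 1350 to 2116 in Hom Mph cells and 1745 to 2075 in Het Mph cells. Of these, C1qb was called higher (at least 8.78-fold) and Fcgr4 lower against both controls (log2 difference -3.46), while Ccr2 and Itgam did not pass the filter. Fcgr4, the brightest of the 8 in both controls, weighs most in the control sums. Differences of 6 of the 8 were above 0, with a median of 0.70. Every Pparg-deficient array was above every control array for C1qb, C1qc and Csf1r and below for Fcgr4, beside 3.58% and 3.3% of all genes. C1qc was above background on the 3 Pparg-deficient arrays and on 0 arrays of either control group. It passed the filter only through the group where it was high, which favoured its place in these counts. Of 14 neutrophil markers 5 were measured, with sums of 424.8 to 499.9 in Pparg-deficient cells, 402.3 to 565.5 in Hom Mph cells and 250.9 to 398.8 in Het Mph cells. Mmp8 was called higher (at least 3.10-fold), and S100a9, Mpo, Elane and Ltf did not pass. The mean log2 signal of Mmp8 was 7.87 in Pparg-deficient cells, 7.57 in Hom Mph cells and 4.38 in Het Mph cells. Of the 5 markers, 2 differed upward and 3 downward from both controls, with 2 each way at an unadjusted p under 0.05. Dendritic cell markers (6 of 10 measured) summed to 338 to 458.4 in Pparg-deficient cells, 300.3 to 483 in Hom Mph cells and 371.9 to 473.1 in Het Mph cells, with Cd24a called higher and Zbtb46, Xcr1 and Cd209a not passing. Of the 6, 2 differed upward and 4 downward from both controls. Of 14 lymphocyte markers 4 were measured, with sums of 279.5 to 337 in Pparg-deficient cells, 313.5 to 328.4 in Hom Mph cells and 384.8 to 489.4 in Het Mph cells, and Cd3d, Cd8a and Ms4a1 did not pass. Lung epithelial markers (10 of 14 measured) summed to 2229 to 2771 in Pparg-deficient cells, 1973 to 2239 in Hom Mph cells and 2073 to 2467 in Het Mph cells. Hopx was called higher, and Sftpa1 and Sftpd did not pass. Of the 10, 5 differed upward and 5 downward from both controls. Unadjusted limma p-values below 0.05 belonged to 1 of the upward and 2 of the downward genes. On all Pparg-deficient arrays Hopx was brighter, and Epcam dimmer, than on any control array. Epcam was above background on 0 Pparg-deficient and 2 Hom Mph arrays. Eosinophil markers (3 of 8 measured, Epx and Prg2 not passing) and endothelial and stromal markers (8 of 12, the collagen genes not passing) had no call against both controls.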

How the data were processed

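Total RNA of sorted cells was amplified to cDNA and labelled with biotin, per the labels' protocols, and hybridized to 9 Illumina beadchip arrays, 3 in each of 3 groups. The authors deposited a table of linear probe intensities that the file headers call non-normalized, each beside a deposited detection p-value of unstated method. The authors' normalized intensity table, with no method stated in the labels or headers, served as an alternative. Columns of other samples were 0.

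Intensities were background-corrected by normexp with the detection p-values (offset 16), quantile-normalized and taken to log2 with limma 3.58.1 in R 4.3.3. That correction assumes detection p-values ranked among negative controls, which the files do not state. Of 46237 probes, 21946 were kept, those whose detection p was under 0.05 on 3 or more of 9 arrays. Of all probes 35784 had 1 gene symbol and 10453 none, and symbols were updated from a RefSeq table (GRCm38.p6) by gene identifier (28620 probes) or accession (2637), with 4527 kept. Each gene took its passing probe of highest mean. Levels were not compared between probes.

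limma's lmFit and eBayes were fitted to 12246 genes over all 9 arrays with 1 mean per group, and p-values were adjusted by Benjamini-Hochberg over all of them, with a call under 0.05. All tests are two-sided, and ± beside a difference is its SE. On simulated data for the comparison with both controls over 12246 genes, the fit recovered 10% of genes changed by 1 on the log2 scale, 92% by 2 and 100% by 3 and by 4, with 2 calls among 12046 unchanged genes.

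Array values are given for called members, members whose groups do not overlap, and the 3 smallest p of each role. The members and lists were chosen with earlier results of these data known.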

Additional observations from a re-analysis of the deposited data

How the results depend on the processing

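The precision rests on 3 arrays a group, and a member at background on most arrays has only a bound. Of the 40 members, 2 were called against both controls. That count was 5 without background correction, 5 in the authors' deposited normalized table, 4 with trend and robust eBayes, 1 without normalization between arrays, 1 without the filter on dim probes, 1 with both controls as 1 group and 0 with detection on all arrays, where Tlr9 and Birc3 are not measured. Leaving out 1 array at a time gave 0 to 2. Of the 3 calls against Het Mph, the count was 5 by normexp without detection p-values, 5 by normexp with an offset of 50, 6 without background correction, 6 in the authors' deposited normalized table, 8 with trend and robust eBayes and 1 without normalization between arrays, with 1 to 3 on leaving out 1 array. The cause was not tested. Against Hom Mph and between Hom Mph and Het Mph, 0 members were called by limma under each alternative run. No called member changed direction.

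Titles share replicate numbers across groups, but correlations of same-numbered deviations between Pparg-deficient and Hom Mph arrays ran from -0.06 to 0.17, so the numbers were not taken as pairs. With the replicate block over 9 arrays, 0 members were called against both controls (Birc3 at adjusted p = 0.0501, Tlr9 at 0.0505) and 2 against Het Mph. With the block over the 6 arrays of Pparg-deficient and Hom Mph cells, chosen after seeing the data, 0 were called.

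Over all genes, 94 were called against both controls (22 to 308 over the alternatives), 129 against Het Mph (44 to 375), 24 against Hom Mph (0 to 72) and 4 between Hom Mph and Het Mph (0 to 45). Without normalization between arrays the median difference of all genes was -0.29 against both controls, -0.22 against Hom Mph and -0.37 against Het Mph, and differences there are relative to that shift.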

Other observations

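Among 25 target genes of NF-kB that are not members, 21 were measured and 2 were higher in Pparg-deficient cells than in the mean of both controls, with 0 lower, beside 0.768% of all genes called. At an unadjusted p under 0.05, 8 were higher and 1 was lower, beside 6.04% and 6.72% of all genes. The lower one, named after its values were seen, was Nos2, the inducible nitric oxide synthase, with overlapping arrays (log2 difference -1.19 ± 0.42, adjusted p = 0.288). Ccl2, the monocyte chemokine, had log2 signals of 8.06, 7.43 and 7.80 in Pparg-deficient cells, of 6.22, 6.82 and 6.38 in Hom Mph cells and of 5.01, 4.92 and 4.51 in Het Mph cells, at least 4.12-fold (adjusted p = 0.00595). The 3 groups did not overlap. Ier3, an early response gene, had 12.75, 12.33 and 12.19 in Pparg-deficient cells, 11.70, 11.89 and 11.60 in Hom Mph cells and 10.89, 10.59 and 10.49 in Het Mph cells, a log2 difference of 1.23 ± 0.23 (adjusted p = 0.0476). Against Het Mph 4 were called higher, beside 0.784% of all genes, these and Plau, the urokinase gene (2.19 ± 0.32, adjusted p = 0.0131), and Ptgs2, which encodes cyclooxygenase-2 (3.39 ± 0.58, adjusted p = 0.0259). Against Hom Mph 0 were called by limma, with 5 higher at an unadjusted p under 0.05, beside 4.05% of all genes. The median log2 difference of the 21 from both controls was 0.34, against -0.07 over all genes.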
